A study of Homo sapiens with 2 samples.

Results

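The genes described here present peptides on HLA class I molecules. They are 9 of the 58735 Ensembl genes in a pair of count tables from MCF10a-Snail-ER cells, chosen by symbol through GENCODE release 44: the heavy chains HLA-B, HLA-C, HLA-E and HLA-F, the loading genes TAP1 and TAPBP, and B2M, ERAP1 and NLRC5. The first 6 lie on chromosome 6 in the major histocompatibility complex (MHC), and the last 3 lie on chromosomes 15, 5 and 16. MCF10a is a non-tumorigenic human mammary epithelial line, and this derivative stably carries the transcription factor Snail fused to the estrogen receptor, whose activity is switched on by tamoxifen. All cells had 100 nM tamoxifen for 1 day, in medium with horse serum, EGF, hydrocortisone, cholera toxin and insulin, and no untreated library was analysed here. The same kind of polyadenylated RNA, called matched in the series, was read as 1 direct RNA library on the Nanopore MinION, in which each RNA strand is read as it is, and as 1 Illumina library made with a stranded mRNA kit, in which RNA is cut, copied to cDNA and amplified.

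Class I molecules carry fragments of proteins made inside the cell to its surface, where CD8 T cells and natural killer cells inspect them. Proteasomes cut the proteins, the TAP transporter moves the peptides into the endoplasmic reticulum, aminopeptidases trim them, and a loading complex places them on a heavy chain paired with beta-2-microglobulin. HLA-B and HLA-C are among the most polymorphic human genes, whereas HLA-E and HLA-F vary little between people. The human reference assembly therefore holds, beside its primary chromosome 6, alternate contigs with other MHC haplotypes.

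The tables held 403235 Nanopore and 191741714 Illumina counts, so a single Nanopore count was worth 2.48 counts per 1000000 (CPM), an Illumina count was worth 0.00522 CPM, and the 3-count limit of the Nanopore library was 7.44 CPM. With 1 library per platform there is no replicate check and no test: every interval below is a 95% exact (Clopper-Pearson) interval that covers counting error only, and each ratio compares these 2 libraries. Basal mammary markers were present by both platforms (8 of 8, 9364 CPM in sum by Nanopore and 10906 by Illumina). Luminal markers were counted too, with 1647 CPM in sum by Nanopore and 688 by Illumina. All 5 had a Nanopore count, but KRT19 had only 1, with 0.459 CPM by Illumina. Of the luminal sums, 965 and 143 CPM were ESR1, the estrogen receptor gene. The cells carry Snail fused to the estrogen receptor, and whether ESR1 counts came from the fusion was not tested. Fibroblast markers summed to 27.3 CPM by Nanopore and 33.8 by Illumina, and endothelial markers to 0 and 5.16. The 6 leukocyte and antigen-presenting cell markers had no Nanopore count and 0.125 CPM in sum by Illumina, with CD74 and HLA-DRA at 0 in both. HLA-DRA itself lies in the chromosome 6 block described below.

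The sequences that separate the heavy chains are shown first, because HLA-B and HLA-C, with many Nanopore counts, and HLA-E and HLA-F, with few, differed in how closely the alternate contigs repeat them. Each is the last 90 bases of the second exon, which codes for part of the peptide groove, read from hg38 in the direction of the gene. The positions on the primary chromosome are chr6:31356688-31356777 (minus strand) for HLA-B, chr6:31271599-31271688 (minus) for HLA-C, chr6:30489906-30489995 (plus) for HLA-E and chr6:29723838-29723927 (plus) for HLA-F. Capitals mark bases of an alternate contig, named by its MHC haplotype, that differ from the primary chromosome.
HLA-B primary: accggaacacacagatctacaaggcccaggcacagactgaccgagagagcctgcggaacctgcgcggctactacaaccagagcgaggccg
HLA-B COX: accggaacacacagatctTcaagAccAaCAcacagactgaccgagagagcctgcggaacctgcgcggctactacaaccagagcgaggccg
HLA-B SSTO: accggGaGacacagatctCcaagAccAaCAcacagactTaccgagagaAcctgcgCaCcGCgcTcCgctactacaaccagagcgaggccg
HLA-C primary: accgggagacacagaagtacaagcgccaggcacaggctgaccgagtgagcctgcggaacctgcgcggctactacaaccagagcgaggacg
HLA-C COX: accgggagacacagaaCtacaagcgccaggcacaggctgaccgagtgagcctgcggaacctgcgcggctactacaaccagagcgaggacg
HLA-C QBL: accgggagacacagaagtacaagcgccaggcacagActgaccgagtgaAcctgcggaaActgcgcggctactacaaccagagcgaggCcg
HLA-E primary: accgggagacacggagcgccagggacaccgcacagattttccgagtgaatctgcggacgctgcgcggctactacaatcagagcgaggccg
HLA-E COX: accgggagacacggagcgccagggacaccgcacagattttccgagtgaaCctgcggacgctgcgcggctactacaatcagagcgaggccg
HLA-F primary: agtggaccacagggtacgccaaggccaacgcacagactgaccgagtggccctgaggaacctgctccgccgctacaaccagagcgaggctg

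In this window the 5 alternate copies of HLA-B differed from the primary chromosome at 5 to 15 bases, and the 6 copies of HLA-C at 1 to 4. Of the 6 copies of HLA-E, 2 were identical and 4 had the single change T50C, counted from the 5′ end of the window. The 5 copies of HLA-F were identical. Between genes, HLA-B and HLA-C differed at 9 of the 90 bases, and HLA-B and HLA-E at 20. Over the whole coding sequence, HLA-B and HLA-C were 91.76% identical, HLA-B and HLA-E 86.09%, and HLA-E and HLA-F 69.00%. Despite this likeness, few 50-base words of the main transcripts recurred in a transcript of another gene: 2.56% for HLA-B, 6.76% for HLA-C, 6.16% for HLA-E and 1.89% for HLA-F. B2M, ERAP1 and NLRC5 shared none.

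Among the heavy chains, HLA-B and HLA-C were counted by both platforms, and the conserved HLA-E and HLA-F almost only by Illumina. HLA-B (ENSG00000234745, chr6:31353872-31367067) had 59 Nanopore counts, 146 CPM (interval 111 to 189), and 13240 Illumina counts, 69.1 CPM. It was 2.12-fold higher by Nanopore (1.61 to 2.74), a log2 ratio of 1.07 that became 1.83 or 1.85 with the Illumina counts divided by union exonic or mean transcript length. HLA-C (ENSG00000204525, chr6:31268749-31272130) had 54 Nanopore counts, 134 CPM (101 to 175), and 26354 Illumina counts, 137 CPM, a Nanopore to Illumina ratio of 0.974 (0.732 to 1.27). The Nanopore levels of HLA-B and HLA-C could not be told apart, whereas HLA-C had 1.99 times the Illumina counts of HLA-B, or 3.32 times per mean transcript length. The larger value rests on the mean over annotated transcripts (2085 bases for HLA-B and 1252 for HLA-C). The canonical transcripts are nearly equal in length, at 1536 and 1542 bases.

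HLA-E (ENSG00000204592, chr6:30489509-30494194), the ligand of the NKG2A receptor on natural killer cells, was the opposite case. It had 25764 Illumina counts, 134 CPM, close to HLA-C, and no Nanopore count. Its Illumina share would give 54.2 Nanopore counts at this depth. Against the 3-count limit it was at least 18.1-fold lower by Nanopore, and its 95% exact interval began at 14.7-fold lower. HLA-F (ENSG00000204642, chr6:29722775-29738528), another conserved heavy chain, had 2452 Illumina counts, 12.8 CPM, and 1 Nanopore count. It was 5.16-fold lower by Nanopore, with an interval of 0.925 to 204 that holds no difference.

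The loading genes of the block were low by Nanopore too. TAPBP (ENSG00000231925, chr6:33299694-33314284) encodes tapasin, which bridges heavy chains to the transporter. It had 22295 Illumina counts, 116 CPM, and 4 Nanopore counts, 9.92 CPM (2.70 to 25.4), and was 11.7-fold lower by Nanopore (4.58 to 43.0). Its log2 ratio of −3.42 became −2.15 by union exonic and −2.27 by mean transcript length. TAP1 (ENSG00000168394, chr6:32845209-32853816), a subunit of the peptide transporter, had 4391 Illumina counts, 22.9 CPM, and 2 Nanopore counts, 4.96 CPM. It was 4.62-fold lower by Nanopore (1.28 to 38.1). Thus the 4 chromosome 6 members other than HLA-B and HLA-C had 7 Nanopore counts together, against 113 for those.

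The members on other chromosomes showed no such deficit. B2M (ENSG00000166710, chr15:44711358-44718851), the shared light chain, had 318 Nanopore counts, 789 CPM (704 to 880), and 130301 Illumina counts, 679.6 CPM. It was 1.16-fold higher by Nanopore (1.04 to 1.30), but the direction depends on length: the log2 ratio of 0.21 turned to −0.23 with the Illumina counts divided by mean transcript length, and was 0.42 with union exonic length. NLRC5 (ENSG00000140853, chr16:56989485-57083531), the transactivator of class I genes, had 2 Nanopore and 899 Illumina counts, 4.96 and 4.69 CPM, a ratio of 1.06 (0.128 to 3.83) that leaves room for several-fold differences either way.

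ERAP1 (ENSG00000164307, chr5:96760810-96808100), the aminopeptidase that trims peptides in the endoplasmic reticulum, stood apart in the other direction. It had 45 Nanopore counts, 112 CPM (81.4 to 149), and 2546 Illumina counts, 13.3 CPM, and was 8.40-fold higher by Nanopore (6.11 to 11.3). Its log2 ratio of 2.98 became 4.35 by union exonic and 3.39 by mean transcript length. ERAP1 overlaps CAST, the calpastatin gene, on the opposite strand, and annotated exons of both share 299 bases. CAST had 44 Nanopore counts, 1 fewer than ERAP1, and 29934 Illumina counts, 11.8 times those of ERAP1. Whether reads of CAST entered the ERAP1 count was not tested. HLA-B overlaps an antisense pseudogene (ENSG00000271581) with 9 Nanopore and 1621 Illumina counts, and HLA-C, HLA-E and B2M overlap no annotated gene. HLA-F, TAP1 and TAPBP also overlap antisense genes. At HLA-F, which had 1 Nanopore count, HLA-F-AS1 had 0 Nanopore and 673 Illumina counts. The pseudogenes ENSG00000225864 and RPL23AP1 there had 1 and 709 and 0 and 199. At TAP1, PSMB8-AS1 had 2 and 1128 counts and PSMB9 had 3 and 1047. The antisense gene at TAPBP was not in the tables. The strand setting of the counting is not given in the sources used here, so reads of such pairs cannot be told apart. How reads shared between heavy chains were treated is not given either.

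**Figure D1:**
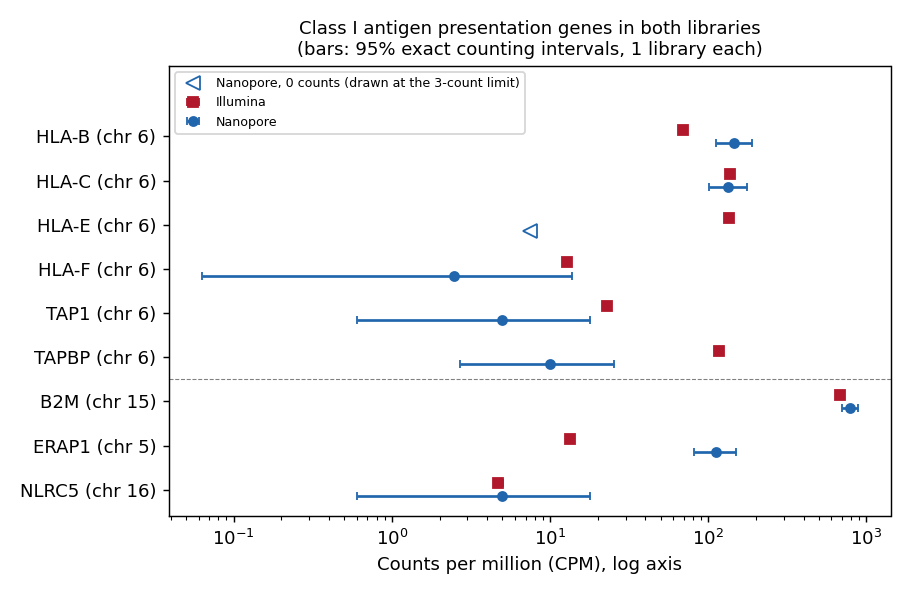
Level of each member by Nanopore (circles) and Illumina (squares) in CPM on a log axis, with 95% exact counting intervals and 1 library each. HLA-C and B2M have nearly the same level by both platforms, HLA-B is 2.12-fold higher by Nanopore, HLA-E has 0 Nanopore counts (open triangle, drawn at the 3-count limit of 7.44 CPM), and ERAP1 is the member with Nanopore furthest above Illumina.

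The order of the members also differed between the libraries. An Illumina gene total grows with transcript length, so levels were compared as length-scaled abundance (TPM, by mean transcript length). In Illumina TPM the order was B2M (928), HLA-C (132), HLA-E (116), TAPBP (51.7), HLA-B (39.8), HLA-F (16.9), TAP1 (12.3), ERAP1 (9.73) and NLRC5 (2.57). With union exonic length the order was the same except that TAP1 (13.1) came before HLA-F (8.03). The order by canonical transcript length was not computed and could differ. Mean transcript lengths were 2085 bases for HLA-B, 1394 for HLA-E and 2701 for TAPBP, against canonical lengths of 1536, 2548 and 3450. A Nanopore read stands for 1 RNA strand, so its counts were ordered without length: B2M first, then HLA-B, HLA-C and ERAP1 with overlapping intervals, then TAPBP, TAP1, NLRC5, HLA-F and HLA-E, whose intervals also overlap. HLA-E thus moved from the third place by Illumina to the last by Nanopore, and ERAP1 from the eighth to the fourth.

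To set the members against the other genes, the log2 ratio of Nanopore to Illumina, with 1 CPM added to each, was taken for the 12414 genes that averaged 5 CPM or more over both libraries. Of the members, 8 were among them, and NLRC5, with a mean of 4.82 CPM, was not. HLA-E (−7.08), TAPBP (−3.42) and TAP1 (−2.004) were at least 4-fold lower by Nanopore, 3 of 8, where 8.14% of all 12414 genes were. ERAP1 (2.98) was at least 4-fold higher, 1 of 8, where 12.9% of all were. The single higher member is thus near the share over all genes. Among tested protein-coding genes alone, 4.74% were at least 4-fold higher, and 1 gene is too few to set against either share. TAP1 was just past the 4-fold line and HLA-F (−1.99) just short of it. TAP1 was short of 4-fold with TMM scaling (−1.92) or mean transcript length (−1.16), whereas HLA-F was past it with that length (−2.36). HLA-B stood at 1.07, HLA-C at −0.04 and B2M at 0.21. The median of the 8 members was −1.01, beside −0.42 for all genes and −0.58 for protein-coding genes. The value of HLA-E depends on the added 1 CPM and is not a bound.

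The low Nanopore counts were shared by neighbouring genes of other functions. The block from the start of HLA-F to the end of TAPBP (chr6:29722775-33314284, hg38) held 147 protein-coding genes in the tables, 79 of which averaged 5 CPM or more. Of these 79, 56 (70.9%) were at least 4-fold lower by Nanopore, against 8.56% of the 10498 protein-coding genes at that level, and none was 4-fold higher, against 4.74%. The median log2 ratio was −3.37, beside −0.58 for all such protein-coding genes. With genes that had no Nanopore count set at the 3-count limit, 51 were 4-fold lower and the median was −2.62. Without the members the count was 53 of 73.

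In the block, 13 of the 79 genes (16.5%) had no Nanopore count, against 1.51% of protein-coding genes. Together the 79 genes had 525 Nanopore counts, where their Illumina share would give 4330. Some of the 79 overlap each other, as readthrough genes do, so both sums may hold the same reads more than once. The 10 most abundant block genes by Illumina were all at least 4-fold lower by Nanopore. TUBB, a beta-tubulin, had 455094 Illumina and 30 Nanopore counts (log2 ratio −4.98). RPS18, a ribosomal protein, had 448470 and 176 (−2.42), and CLIC1, a chloride channel protein, had 135039 and 19 (−3.87). The other 7 were DDX39B, its readthrough gene ATP6V1G2-DDX39B, BAG6, PRRC2A, VARS1, BRD2 and CSNK2B, at −3.31 to −5.67. DDX39B and its readthrough gene overlap and had 11 Nanopore counts each, and whether these are the same reads was not tested.

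Only 4 of the 79 block genes had a ratio above 0: HLA-B, CDSN (1.15), PSMB9 (0.39) and PSORS1C1 (0.13). CDSN encodes corneodesmosin, a protein of cornified epithelium. Of these 4, HLA-B alone had more than 3 Nanopore counts.

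**Figure D2:**
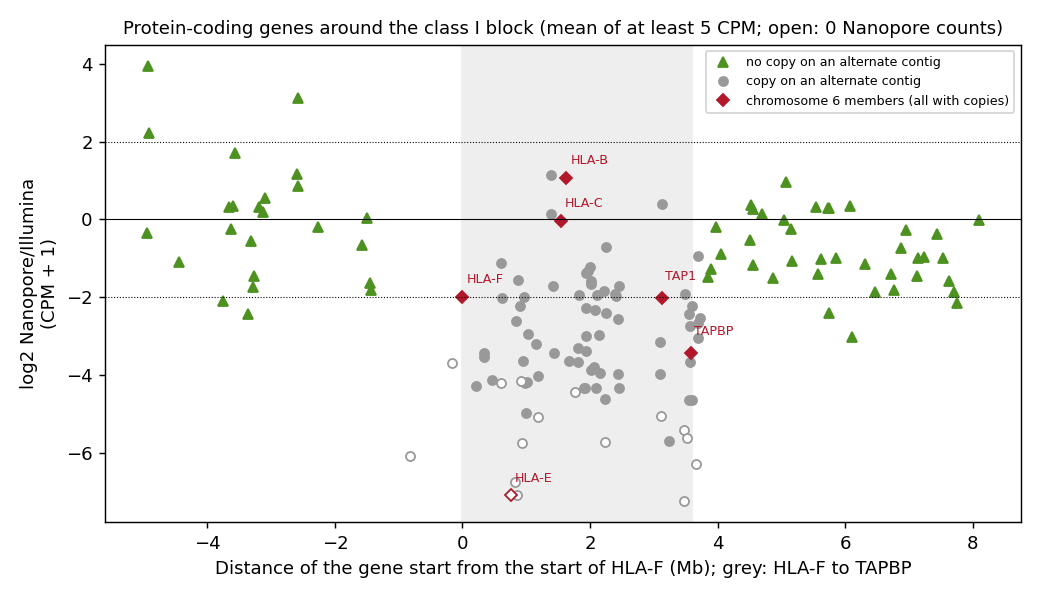
Log2 ratio of Nanopore to Illumina (CPM + 1) for protein-coding genes that averaged 5 CPM or more, by distance of the gene start from the start of HLA-F in Mb, with 5 Mb on either side of the shaded block. Genes repeated on an alternate contig (circles, and diamonds for members) lie mostly below −2, genes without one (triangles) mostly above it, and open symbols have 0 Nanopore counts.

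The low stretch ran beyond the members on both sides. Before HLA-F, the nearest genes at this level were GABBR1 (0 Nanopore and 2253 Illumina counts) and TRIM27 (0 and 12762). Against the 3-count limit TRIM27 was at least 8.95-fold lower by Nanopore. The next, PGBD1 (log2 ratio −1.82), ZSCAN26 (−1.63) and ZSCAN9 (0.04), were short of 4-fold. After TAPBP, ZBTB22 (−2.21), DAXX (−4.63), KIFC1 (0 and 14590 counts) and PHF1 (−2.67) were past 4-fold, and CUTA (38 and 34785 counts, −0.94) was not. KIFC1 was at least 10.2-fold lower against the 3-count limit.

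Genes of the flanks were then divided by whether alternate contigs repeat them. Copies were called where at least 80% of a gene's canonical transcript aligned to an alternate contig of its own chromosome with at most 5% divergence. All 79 block genes had one. In the flanks of 5 Mb, 8 of the 9 genes with a copy were at least 4-fold lower by Nanopore (median −3.04), with CUTA the exception, against 5 of the 62 without a copy (median −0.61). With genes without a Nanopore count at the 3-count limit, the first count was 7 of 9. Of the 5 without a copy, none was at 0 by Nanopore.

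The chromosome 6 members with few Nanopore counts had the closer copies. HLA-E had copies on 6 contigs with 0 to 3 differences over its 2548-base transcript, TAP1 on 7 with 0 to 1, TAPBP on 4 with 0 to 14, and HLA-F on 5 with 1 to 4. HLA-B had copies on 5 contigs with 22 to 63 differences over 1536 bases. HLA-C had copies on 6 contigs, 5 of them with 52 to 62 differences and the COX contig with 4.

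B2M did not follow that order: its copy on a chromosome 15 alternate contig differs at 1 of 943 bases, and it had 318 Nanopore counts. In the block as a whole, 53 of the 72 genes whose closest copy had 0 to 3 differences were 4-fold lower (median −3.40), against 3 of the 7 with 4 or more (median −1.72), a division chosen after the values were seen. With zero counts at the 3-count limit the first count was 48 and its median −2.65. HLA-B and HLA-C were among the 4 short of 4-fold. BRD2, whose closest copy had 4 differences as for HLA-C, was among the 3 past it (−5.67). Which contigs were in the index used by the submitters, and how reads that fit several places were counted, are not given in the sources used here, and the part of the alternate copies in the Nanopore counts was not tested.

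**Figure D3:**
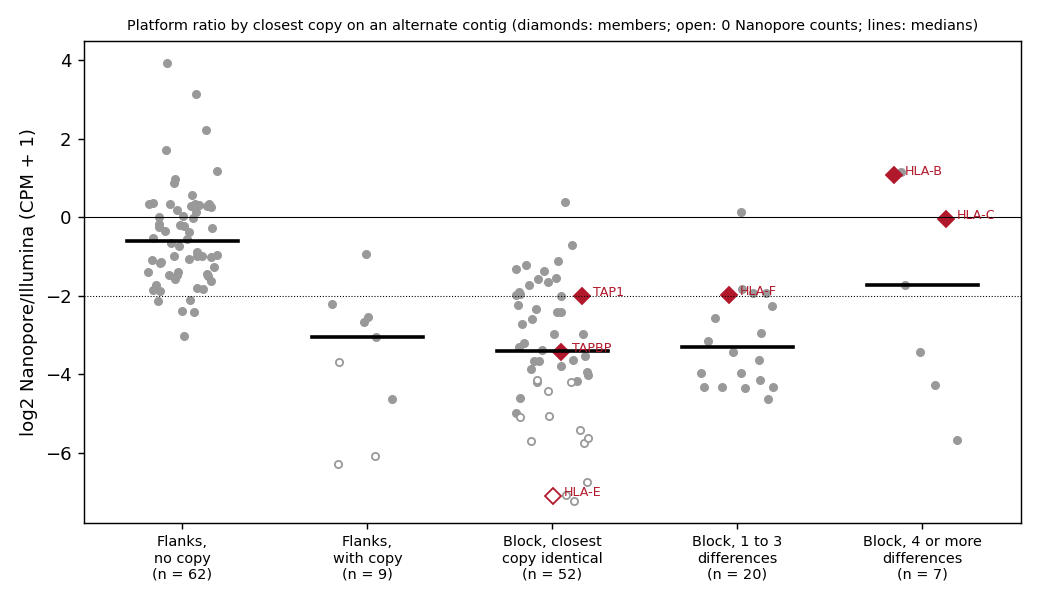
Log2 ratio of Nanopore to Illumina (CPM + 1) for flank and block genes, grouped by the closest copy of the canonical transcript on an alternate contig. Each point is a gene, open points have 0 Nanopore counts, diamonds are members and lines are medians. The drawn medians range from −0.61 in flanks without a copy to −3.40 in block genes with an identical copy. All 13 block genes with 0 Nanopore counts are in the identical-copy group. With these at the 3-count limit its median is −2.56, less low than the −3.30 of block genes with 1 to 3 differences.

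The other genes of the pathway were taken from a list of 57, all present in the tables, of which 40 averaged 5 CPM or more. Of these, 8 were at least 4-fold lower and 1 at least 4-fold higher by Nanopore, with a median log2 ratio of −0.91, beside 8.14%, 12.9% and −0.42 for all genes. The 40 are all protein-coding, and over tested protein-coding genes the values were 8.56%, 4.74% and −0.58. Inside the block 5 of 6 were lower (3 with zero counts at the 3-count limit), and elsewhere 3 of 34 (median −0.80).

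For peptide production, the immunoproteasome subunit PSMB8, in the block, had 0 Nanopore and 6168 Illumina counts and was at least 4.32-fold lower by Nanopore. PSMB9, its neighbour in the block, had 3 and 1047 counts, and PSMB10, the remaining such subunit, on chromosome 16, had 8 and 3469 (log2 ratio 0.13). The proteasome activators PSME1 (0.08) and PSME2 (−0.62) and the peptidases NPEPPS, TPP2 and LAP3 (−1.31 to −0.65) were within 4-fold. Of the trimming enzymes, LNPEP stood at −1.23, and ERAP2 had 1 and 879 counts.

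In transport and loading, TAP2, the partner of TAP1 and its near neighbour, had 2 Nanopore and 17617 Illumina counts (−3.96). Both TAP subunits were therefore at 2 Nanopore counts, although TAP2 had 4.01 times the Illumina counts of TAP1, or 2.01 times per mean transcript length. TAP2 overlaps the gene ENSG00000250264, with 2 and 9992 counts, and whether these are the same reads was not tested. The chaperones on other chromosomes were mostly closer. CALR stood at −1.75, PDIA3 at −0.90, HSPA5 at −1.44 and TAPBPL, a tapasin homologue, at −0.06. CANX (calnexin, −3.53, 31 and 172567 counts) and UGGT1, a glycoprotein folding sensor (−2.63), were past 4-fold without a copy on an alternate contig. With the Illumina counts divided by mean transcript length, CANX was at −1.62 and UGGT1 at −1.19.

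Of the class I-like chains, MICA (−3.63, 1 Nanopore and 8094 Illumina counts) and MICB (0 and 3941, at least 2.76-fold lower), stress ligands of the NKG2D receptor encoded in the block, were also low. MR1, which presents vitamin metabolites and lies on chromosome 1, stood at −1.22.

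The regulators and receptors were mostly near the bulk of genes. Of 11 transcription factors at this level only NFYA (−2.41, 3 and 8424 counts) was past 4-fold, a call lost with mean transcript length (−0.77), and IRF1 (−0.96), RFX5 (−0.81) and CIITA (−1.47) were not. IFNGR1 (0.67), IFNGR2 (−0.41) and JAK1 (−0.79) were within 4-fold. Among genes of heavy chain turnover, the ubiquitin ligase SYVN1 was the 1 list gene past 4-fold upward (2.93, 239 and 14747 counts). SYVN1 overlaps FAU, with 246 and 80124 counts, and whether reads of FAU entered its count was not tested. NFYA overlaps OARD1, with 3 and 5720 counts.

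**Figure D4:**
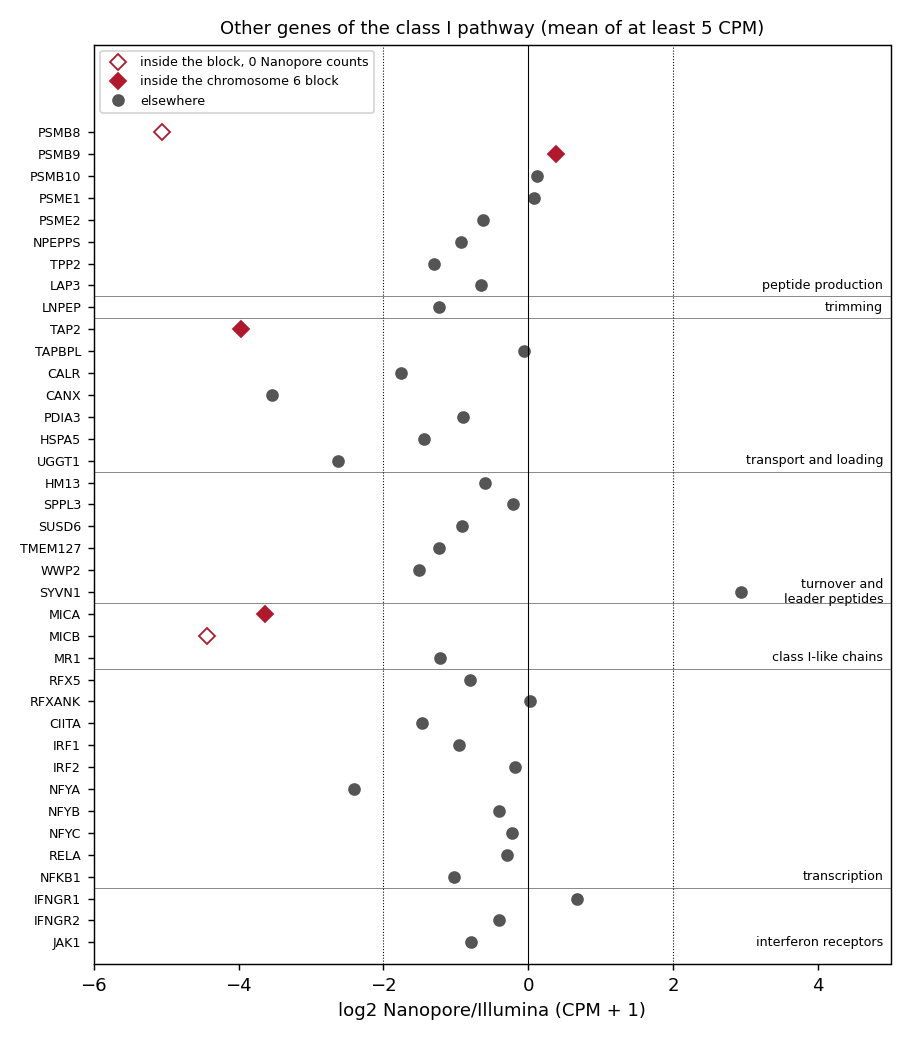
Log2 ratio of Nanopore to Illumina (CPM + 1) for 38 of the 40 other pathway genes that averaged 5 CPM or more, by role. Genes in the chromosome 6 block (diamonds, open where the Nanopore count is 0) lie at −3.63 or below except PSMB9, and most genes elsewhere (circles) lie within 4-fold (dotted lines).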

How the data were processed

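The authors deposited whole-number counts per Ensembl gene for 1 Nanopore and 1 Illumina library, without normalization. Per the submitters' processing notes, hg38, minimap2 2.11-r797, HISAT2 2.1.0 and featureCounts were used, with no role or order given. Per the file headers the Nanopore column has a tag that no label explains, and whether its reads were corrected with Illumina reads, which would make the libraries dependent, is not given. The annotation, the strand setting and the treatment of reads on several genes or places are not given in the sources used here. Of 58735 identifiers, 58207 were in GENCODE release 44, which gave names, positions (hg38) and lengths. Counts were divided by library totals (CPM), and ratios are log2 of CPM + 1, which understates differences of rare genes. Calls are a 4-fold ratio where the mean of both libraries was 5 CPM or more, without a test, since no count model can be fitted to 1 library per platform. The ratio call, the exact binomial test and the counting intervals were tested on simulated counts. The copy calls and the division by length were not. Canonical transcripts were aligned to each alternate contig (minimap2 2.31, spliced mode), with no other chromosome's contigs searched. Alternatives were 2 scalings (TMM, edgeR 4.0.16 in R 4.3.3, and a median ratio over genes reaching 10 counts by both platforms), Illumina TPM by 2 lengths, pseudocounts of 0.1 and 5 CPM, other filters and call rules, and genes without overlap. The text names all members, the list genes of the pathway, the 10 block genes highest by Illumina and those with a ratio above 0, the 5 nearest genes on either side, and genes overlapping members. Values of some list genes are not reported here, although counts over the lists include them. The members and lists were chosen with earlier results of these data known.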

Additional observations from a re-analysis of the deposited data

How the results depend on the processing

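Of the alternative values of single members, 66 stayed within the counting interval of the main value. The other 6 came from division of the Illumina counts by length, and were B2M (−0.23 by mean transcript and 0.42 by union exonic length, from 0.21), HLA-B (1.85 and 1.83, from 1.07), and by union exonic length TAPBP (−2.15, from −3.42) and ERAP1 (4.35, from 2.98). TAP1 was no longer past 4-fold with TMM (−1.92), the median ratio (−1.90), either length (−1.24 and −1.16) or 5 CPM added (−1.49), which left 2 members lower or, by mean transcript length, 3, HLA-F among them. Among genes without overlap, the members lower by Nanopore were 1 (HLA-E) and those higher 0, since ERAP1, TAP1 and TAPBP overlap other genes, and at 2-fold 2 members were higher. The median of the members, −1.01, became 0.0886 among members averaging 20 CPM or more, and −0.0372 with no filter and among genes without overlap. The block median was −2.57 with 5 CPM added, −2.22 with no filter and −2.42 among the 13 block genes without overlap, of which 8 were 4-fold lower. The pathway genes 4-fold lower were 5 with either length, 17 at 2-fold and 0 among genes without overlap. Requiring an exact binomial test over all genes changed no count here. TMM and the median ratio moved the median of all genes to −0.33 and −0.29, and the lengths to 0.42 (union) and 0.07 (mean transcript). HLA-C, at −0.04, turned to 0.05, 0.09, −0.15 and 0.02 in the same order. No paired analysis was possible because each platform has 1 library. At 2.48 CPM per Nanopore count, differences of HLA-F, TAP1 and NLRC5 rest on 1 or 2 reads.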
